A study of Danio rerio and Xiphophorus maculatus with 12 samples.

Results

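The injured ventricle of zebrafish (Danio rerio) was set against that of platyfish (Xiphophorus maculatus) 7 days after cryoinjury, a lesion made by touching the heart with a cold probe. Members were the 6 cryoinjured libraries of 12, 3 from zebrafish and 3 from platyfish, taken by their titles and organism labels. All fish were unmodified wild-type adults, and each library held the RNA of 8 pooled ventricles, so the spread between libraries is a spread between pools and not between fish. The tubes came from separate fish, but the labels do not name separate clutches or tanks. The other 6 libraries, 3 from uninjured zebrafish and 3 from uninjured platyfish that had not been handled, served to show which day 7 differences were also there without injury. For the cryoinjured platyfish libraries the treatment label speaks of zebrafish, whereas title and organism give platyfish, which was followed.

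Zebrafish replace ventricular muscle lost to cryoinjury through division of cardiomyocytes that survive, after a phase in which inflammatory cells clear debris and fibroblasts lay down a provisional, collagen-containing matrix that is later removed. The epicardium, the outer cell layer of the heart, and the endocardium, its inner lining, both send signals to the muscle during this phase. The series asks how far the heart of livebearing fish recovers and whether a scar persists, and day 7 falls in the stage when matrix is deposited and cells divide.

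Only 13662 gene symbols were written the same way in both species and occurred once in each count table, out of 32520 zebrafish and 24209 platyfish genes. Of these, 8093 had enough counts in each species to be tested. The 6 cryoinjured libraries held 20735097 to 26241176 counts each. Counts are not corrected for gene length or for how completely a gene is annotated, and both differ between the species, so a level difference in one gene can be one of annotation; the cause was not tested, and for many genes the same difference in uninjured ventricles is given too. Levels are CPM (a library's count of a gene scaled to a fixed library total) over the tested genes, scaled by the trimmed mean of M-values (TMM) across the 6 libraries of one state, so cryoinjured and uninjured CPM are scaled separately. The cryoinjured zebrafish libraries differed from the platyfish ones as libraries. Mitochondrial genes took 28.9% to 37.3% of their counts, against 17.7% to 20.6% in cryoinjured platyfish. The 20 most abundant matched genes took 33.2% to 34.8% of matched counts in zebrafish and 18.04% to 21.6% in platyfish. Zebrafish cryoinjured replicates 2 and 3 had counts for 16530 and 15976 genes, against 18264 in zebrafish replicate 1 and 18480 to 18693 in the platyfish libraries. The part of these differences in the results below was not tested.

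At day 7, 2800 genes were higher in zebrafish and 2913 were lower, which is 34.6% and 36% of the tested genes, at a false discovery rate of 0.05 (edgeR quasi-likelihood test, Benjamini-Hochberg adjustment). Among them 1000 were at least 4-fold higher and 1407 at least 4-fold lower. In total 70.6% of genes were called, and counts of members called are read against that share. In uninjured ventricles 75.3% were called, with 3063 higher in zebrafish and 3032 lower. Of the 5713 day 7 calls, 5128 (89.8%) were also called in the same direction without injury, 569 (9.96%) were called only at day 7, and 16 were called in opposite directions. Across the 8093 genes the day 7 and uninjured log2 fold changes had Pearson r = 0.95 and Spearman rho = 0.94. Genes are not replicates here, and both differences share the same gene models in each species. When libraries were scaled by their total counts of the tested genes instead of by TMM, the median log2 fold change of all genes shifted by -0.61. The split became 1813 higher and 3974 lower, so genes up to about 0.61 above 0 have no settled direction.

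The difference between the species' injury responses, equal to the day 7 difference minus the uninjured difference, removes what is constant for a gene within each species. It passed the threshold for 210 genes (2.59%): zebrafish over platyfish was higher at day 7 than without injury for 100 (1.24%) and lower for 110 (1.36%). These calls were few, and their number changed with the libraries used. Only 49 of the 210 were kept in all 12 fits made without 1 library. With the replicate number as a block, 41 and 49 genes were called, and without zebrafish cryoinjured replicates 2 and 3 only 7 and 12. That last fit has 1 library left in its group. Fits with fewer libraries also have less power, which was not told apart from the weight of single libraries. The day 7 calls were steadier, with 4927 of 5713 kept in each of 6 fits leaving out 1 library. Of the 100 genes, 21 were called between the species at day 7 only, and 46 differed in the same direction in both states but less at day 7. Of the 110, 13 were called at day 7 only and 39 differed less at day 7. Response calls counted in the lists below are read against the 1.24% and 1.36% of all tested genes.

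**Figure D1:**
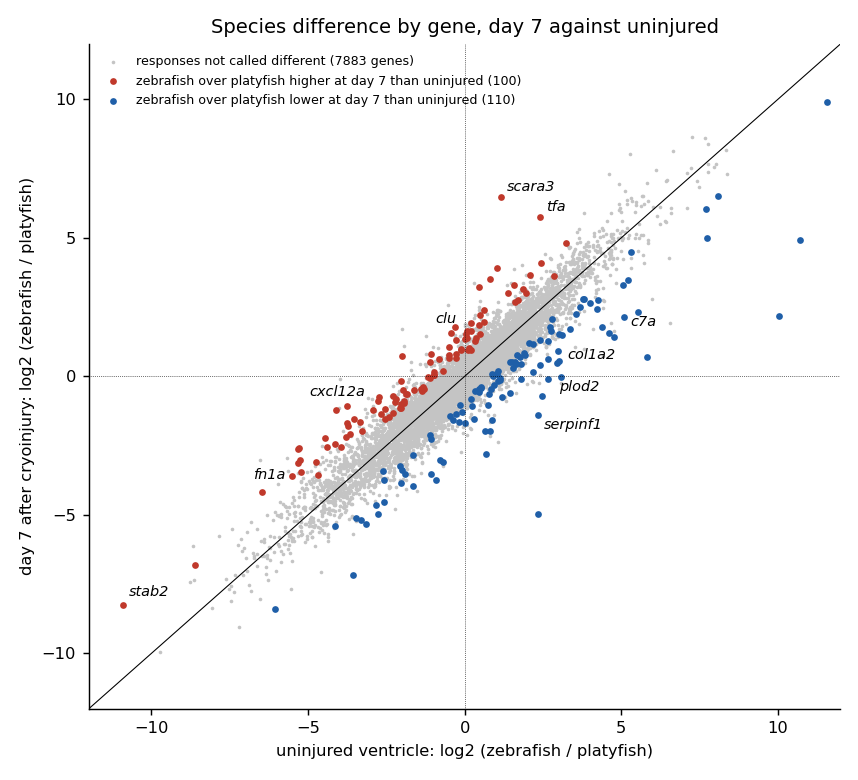
Each point is 1 of the 8093 tested genes, with the uninjured log2 fold change of zebrafish over platyfish on the x axis and the day 7 log2 fold change on the y axis. The line marks equal differences in both states. Most genes lie along it (Pearson r = 0.95), and the 100 red and 110 blue genes are those whose injury responses differed.

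**Figure D2:**
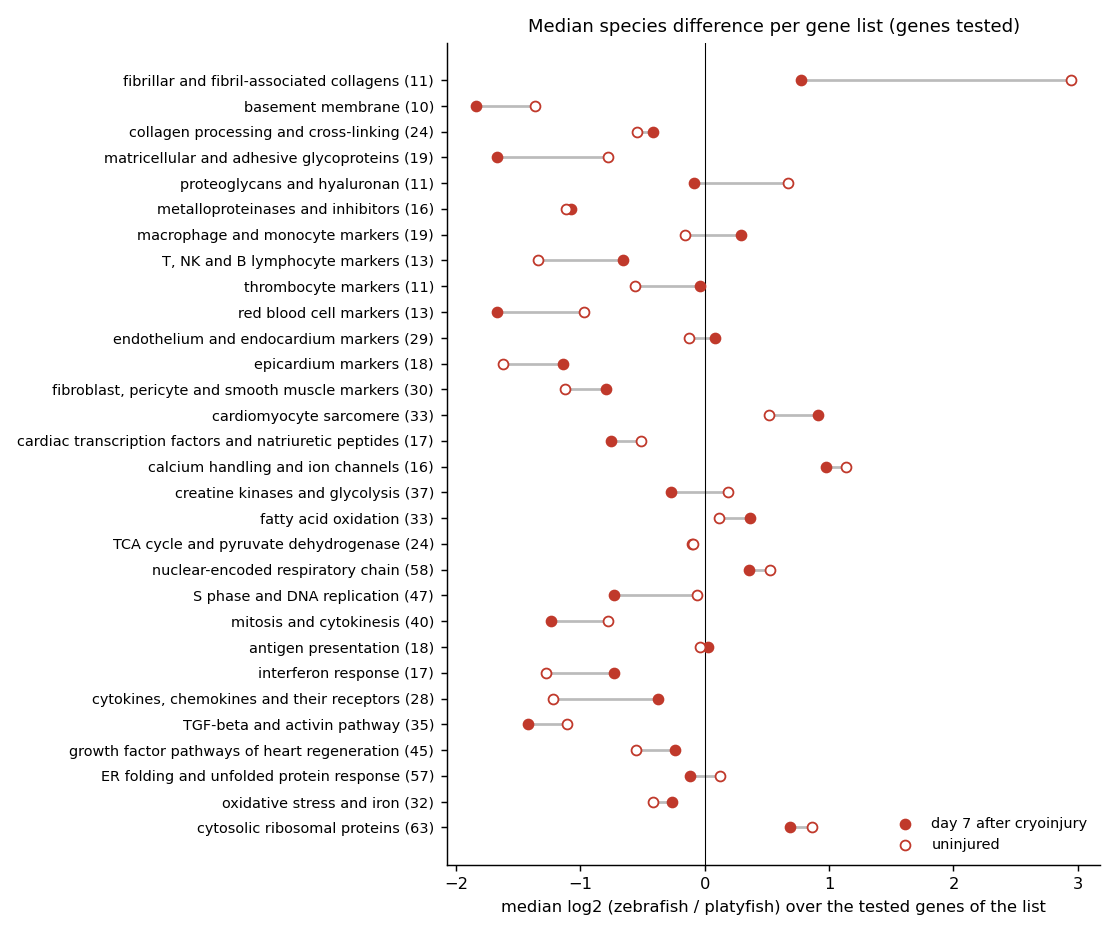
Median log2 fold change of zebrafish over platyfish for the 30 gene lists with at least 10 tested genes, at day 7 (filled) and uninjured (open), with the number of genes tested in parentheses. The collagen list moved the most, with a median of 0.78 at day 7 and 2.94 without injury.

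Among the lists with at least 10 tested genes, the median difference moved most between the states for collagens, which were much higher in uninjured zebrafish and closer to platyfish at day 7. Of 28 listed fibrillar and fibril-associated collagen genes 16 were matched and 11 tested. At day 7, 6 were higher in zebrafish and 1 was lower, with a median log2 fold change of 0.78, beside a median of -0.01 over all tested genes. In uninjured ventricles 8 were higher and 1 lower, with a median of 2.94. The injury responses of 5 differed, and in all 5 zebrafish over platyfish was lower at day 7 than uninjured: col1a1a, col1a1b, col1a2, col5a2a and col6a1. Over all tested genes 1.36% were called in that direction. In bulk tissue, fewer cells of a type and less RNA per cell cannot be told apart, here and for every gene below.

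The gene col1a2, for the alpha-2 chain of type I collagen, the main fibre of scars, had 371, 431 and 474 CPM in cryoinjured zebrafish and 364, 151 and 409.6 CPM in cryoinjured platyfish. In uninjured ventricles it had 178, 138 and 134 CPM in zebrafish and 20.3, 18.6 and 19.6 CPM in platyfish. At day 7 the libraries of the species overlapped and the difference did not pass the threshold (log2 fold change 0.47 ± 0.32, SE, n = 3 each, adjusted p = 0.212), whereas uninjured zebrafish libraries lay above the platyfish ones (2.94 ± 0.16, adjusted p = 2.99e-07). The response difference was -2.49 ± 0.40 (adjusted p = 0.0133, edgeR) and was kept in 12 of 12 fits leaving out 1 library. Scaling by tested-gene counts turned the sign of the day 7 difference (-0.13). The gene ranked at percentile 96.0 of tested genes in cryoinjured zebrafish and 94.6 in cryoinjured platyfish, which is a comparison within libraries that does not use the scaling.

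The alpha-1 chain of type I collagen is split over a gene pair, and the counts fell differently on its copies. Whether the 2 symbols name the same copies in both species was not tested. Nearly all zebrafish counts were of col1a1b, and platyfish had counts of both copies, not corrected for their lengths. col1a1b had 339, 416 and 448 CPM in cryoinjured zebrafish and 293, 139.9 and 341 CPM in cryoinjured platyfish. Uninjured, it had 128, 117 and 136 CPM in zebrafish and 18.4, 22.4 and 19.3 CPM in platyfish. At day 7 the ranges met only where platyfish replicate 3 reached zebrafish replicate 1, and the difference missed the threshold (0.64 ± 0.29, adjusted p = 0.0752), passing it with the replicate block (adjusted p = 0.0477) and without platyfish cryoinjured replicate 3 (0.89, adjusted p = 0.0298). col1a1a had 7.74, 8.91 and 8.59 CPM in cryoinjured zebrafish and 300.3, 138 and 360.1 CPM in cryoinjured platyfish. Without injury it had 2.04, 3.11 and 2.87 CPM in zebrafish and 16.95, 18.8 and 18.4 CPM in platyfish. Of the 11 collagens of this list it was the 1 lower in zebrafish at day 7 (-4.98 ± 0.36, adjusted p = 1.85e-06). With both copies summed, type I alpha-1 collagen had 409 ± 56.5 CPM in cryoinjured zebrafish and 524 ± 220.1 CPM in cryoinjured platyfish (SD, n = 3 each), a difference of -0.40 ± 0.29 that did not pass the threshold (adjusted p = 0.25). Uninjured, the sums were 129.9 ± 9.40 CPM in zebrafish and 38.1 ± 2.90 CPM in platyfish, and the response difference of the sum was -2.14 ± 0.36 (adjusted p = 0.0118). For col1a1a alone the response difference, -2.24 ± 0.44 (adjusted p = 0.0222), was kept in 9 of 12 fits and lost without platyfish uninjured replicate 1 (adjusted p = 0.0559), platyfish uninjured replicate 2 (adjusted p = 0.0545) or zebrafish uninjured replicate 3 (adjusted p = 0.0529).

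The chains of type V and type VI collagen stayed higher in zebrafish in both states. col5a2a, which helps to start fibrils of type I collagen, had 174, 149 and 187 CPM in cryoinjured zebrafish and 61.2, 27.6 and 60.8 CPM in cryoinjured platyfish. Uninjured, it had 135, 141 and 138 CPM in zebrafish and 5.34, 10.2 and 4.25 CPM in platyfish. The species did not overlap in either state, as at day 7 in 76.2% of tested genes. The log2 fold change was 1.77 ± 0.28 at day 7 (adjusted p = 0.000337) and 4.38 ± 0.30 uninjured (adjusted p = 1.44e-06). Its response difference of -2.62 ± 0.44 (adjusted p = 0.0141) missed the threshold with the replicate block (adjusted p = 0.0521). col5a1 (2.34 ± 0.25), col6a1 (1.496 ± 0.25) and col6a2 (2.33 ± 0.28) were also higher in zebrafish at day 7 and higher without injury. The response call of col6a1 (-1.62 ± 0.32, adjusted p = 0.0226) was lost without platyfish uninjured replicate 1 (adjusted p = 0.0617) or platyfish uninjured replicate 2 (adjusted p = 0.0549). col12a1a, a fibril-associated collagen, had 21.3, 26.8 and 40.7 CPM in cryoinjured zebrafish and 16.4, 12.6 and 22.8 CPM in cryoinjured platyfish, a difference of 0.78 ± 0.30 (adjusted p = 0.0408) that was not past the threshold without injury (-0.55 ± 0.39, adjusted p = 0.232). That day 7 call was lost without zebrafish cryoinjured replicate 2 (0.84), zebrafish cryoinjured replicate 3 (0.48), platyfish cryoinjured replicate 1 (0.75) or platyfish cryoinjured replicate 2 (0.59).

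**Figure D3:**
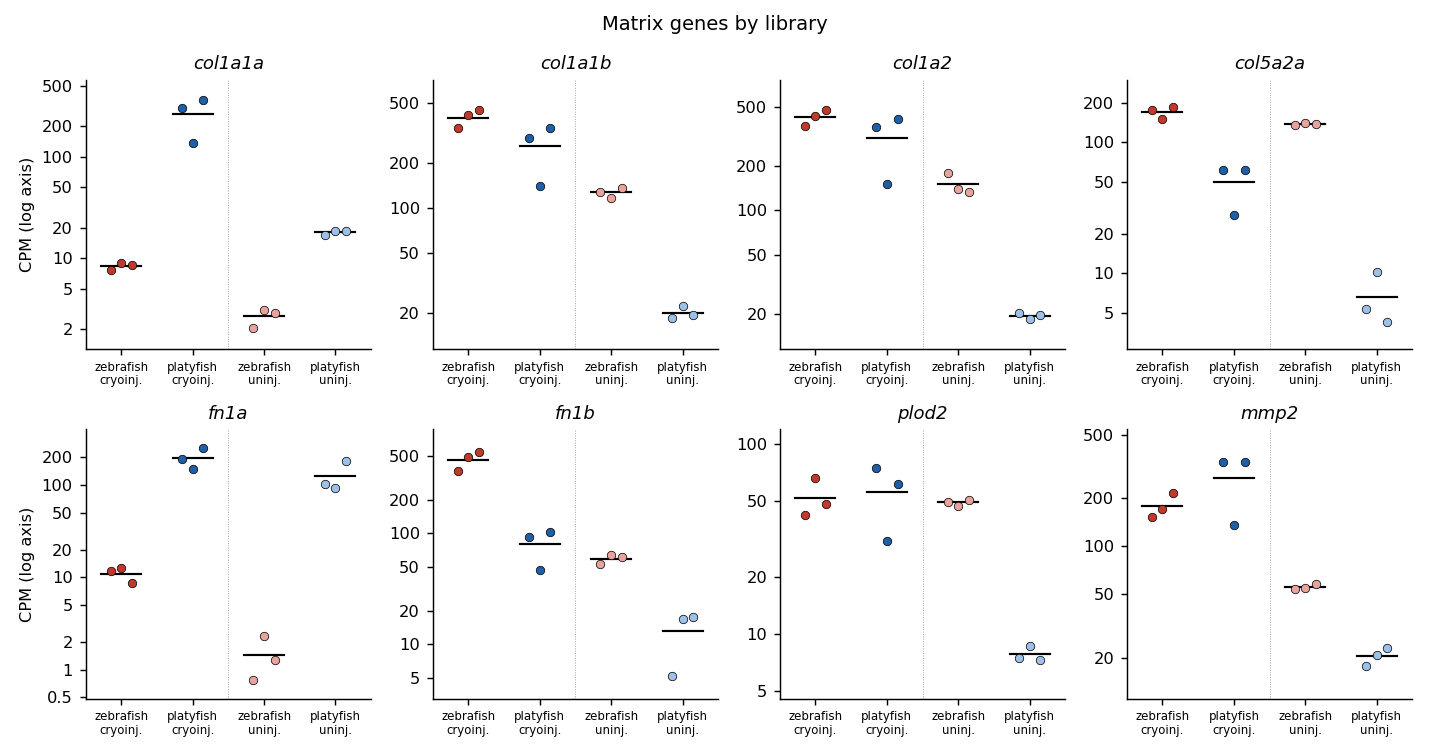
CPM on a log axis of 8 matrix genes in each library, for cryoinjured zebrafish and platyfish (left of the dotted line) and uninjured zebrafish and platyfish (right). Points are libraries and lines are means over 3. For col1a1b, col1a2, plod2 and mmp2 the cryoinjured libraries of the species lie close together while the uninjured ones are apart, and platyfish cryoinjured replicate 2 is the lowest platyfish library at day 7 in all 8 panels.

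Enzymes that modify and cross-link collagen differed in both directions. Of 40 listed genes 31 were matched and 24 tested; 7 were higher in zebrafish at day 7 and 12 lower (median -0.42), and the uninjured counts were also 7 and 12. plod2, a lysyl hydroxylase whose product makes collagen cross-links harder to digest, was the 1 member whose response differed. It had 42.4, 66.4 and 48.6 CPM in cryoinjured zebrafish and 74.8, 30.8 and 61.7 CPM in cryoinjured platyfish. In uninjured ventricles it had 49.9, 47.5 and 50.7 CPM in zebrafish and 7.52, 8.71 and 7.33 CPM in platyfish. The cryoinjured libraries overlapped (-0.09 ± 0.31, adjusted p = 0.807), the uninjured ones did not (2.65 ± 0.15, adjusted p = 3.18e-07), and the response difference of -2.75 ± 0.38 (adjusted p = 0.00542) was kept in 12 of 12 fits. Within zebrafish its change after injury was -0.06 ± 0.18 (adjusted p = 0.902), and within platyfish it rose (2.69 ± 0.31, adjusted p = 0.00501). By the same test 1.47% of genes changed after injury within zebrafish and 6.18% within platyfish, where 4.02% rose and 2.16% fell. Among lysyl oxidases, which form the cross-links, loxl1 was higher in zebrafish in both states (4.54 at day 7, 5.53 uninjured), loxa was lower in both (-2.93 at day 7 and -4.13 uninjured), and loxl2b did not pass the threshold at day 7 (-0.11 ± 0.26, adjusted p = 0.716). Uninjured, loxl2b was lower in zebrafish (-0.96 ± 0.32, adjusted p = 0.0204), a call lost without zebrafish uninjured replicate 1 or platyfish uninjured replicate 2 (adjusted p up to 0.0903). With the loxl2 copies summed, zebrafish was lower at day 7 (-1.43 ± 0.18, adjusted p = 6.88e-05, edgeR). The sums were 20.2 ± 3.35 CPM in cryoinjured zebrafish and 53.1 ± 2.85 CPM in cryoinjured platyfish. The collagen chaperone genes fkbp10a (-3.04) and fkbp10b (-3.85) were lower in zebrafish at day 7, and uninjured values were -3.02 and -3.48.

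Fibronectin, an adhesive glycoprotein of the provisional wound matrix, also has a gene pair, whose copies differed in opposite directions. Whether the symbols name the same copies in both species was not tested here either. fn1b had 363, 483 and 539 CPM in cryoinjured zebrafish and 92.6, 46.5 and 103 CPM in cryoinjured platyfish, and 52.9, 63.2 and 60.6 CPM in uninjured zebrafish and 5.18, 16.9 and 17.6 CPM in uninjured platyfish. fn1a had 11.6, 12.6 and 8.59 CPM in cryoinjured zebrafish and 190.3, 149 and 251 CPM in cryoinjured platyfish, and 0.777, 2.31 and 1.28 CPM in uninjured zebrafish and 102, 93.5 and 182 CPM in uninjured platyfish. No library of one species reached the range of the other for either copy in either state, and the day 7 log2 fold changes were 2.52 ± 0.30 for fn1b and -4.16 ± 0.25 for fn1a (adjusted p = 4.37e-05 and 6.12e-07). With the copies summed, fibronectin had 473 ± 88.8 CPM in cryoinjured zebrafish and 277 ± 79.3 CPM in cryoinjured platyfish, a difference of 0.73 ± 0.23 (adjusted p = 0.0164). The sum was not refitted under scaling by tested-gene counts. That scaling shifted the median of all genes by -0.61, close to the size of this difference. Uninjured sums were 60.3 ± 6.08 CPM in zebrafish and 139 ± 52.8 CPM in platyfish, with the platyfish mean the higher one, and the response difference of the sum was 1.96 ± 0.37 (adjusted p = 0.0169). For fn1a alone it was 2.28 ± 0.50 (adjusted p = 0.0321), kept in 6 of 12 fits (adjusted p from 0.0255 to 0.0944 over those fits).

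Of 52 matricellular and adhesive genes, which tune how cells attach to matrix, 32 were matched and 19 tested; 6 were higher in zebrafish at day 7 and 12 lower (median -1.67), against 6 higher and 11 lower uninjured (median -0.78). ccn2a, the CTGF gene, a target of TGF-beta and YAP signalling, had 2.82, 2.61 and 0.391 CPM in cryoinjured zebrafish and 120.4, 113 and 81.3 CPM in cryoinjured platyfish and was lower in zebrafish in both states (-5.71 ± 0.44 at day 7, -5.23 ± 0.48 uninjured). sparc, a collagen-binding glycoprotein, had 148, 213 and 230.0 CPM in cryoinjured zebrafish and 527, 329 and 479 CPM in cryoinjured platyfish (-1.17 ± 0.23, adjusted p = 0.00118), with the species also apart without injury (-1.53 ± 0.21). thbs2a, thrombospondin 2, had 5.75, 4.99 and 5.99 CPM in cryoinjured zebrafish and 57.8, 22.8 and 54.0 CPM in cryoinjured platyfish, and its response difference of -2.23 ± 0.46 (adjusted p = 0.023) was kept in 6 of 12 fits (adjusted p from 0.00197 to 0.0668 over those fits) and missed the threshold with the replicate block (adjusted p = 0.0526). comp, the cartilage oligomeric matrix protein, was the member highest in zebrafish (3.37 at day 7, 1.48 uninjured). For periostin, a matricellular protein of healing tissue, the copies parted: postna was lower in zebrafish at day 7 (-1.80 ± 0.46, against -0.41 uninjured), but postnb had 99.0, 112 and 157 CPM in cryoinjured zebrafish and was untested, with 4 counts over the 3 cryoinjured platyfish libraries. The 2 copies summed to 175 ± 52.6 CPM in cryoinjured zebrafish and 181 ± 57.3 CPM in cryoinjured platyfish, a difference of -0.09 ± 0.26 (adjusted p = 0.772). tnc had no symbol matched in both species, and thbs4b was matched but had too few counts in zebrafish, at 0.732, 1.07 and 0 CPM in the cryoinjured zebrafish libraries and 41.9, 20.97 and 31.01 CPM in the cryoinjured platyfish ones.

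Basement membrane genes were mostly lower in zebrafish. Of 26 listed genes 12 were matched and 10 tested; 7 were lower at day 7 and 2 higher, and the uninjured counts were the same. Examples are col4a1 (-2.10 at day 7, -1.27 uninjured), a type IV collagen chain, and the laminin chain gene lamc1 (-2.46 at day 7 and -1.46 uninjured), while lamb2 was higher (2.11 at day 7 and 2.42 uninjured). Among 11 tested proteoglycan and hyaluronan genes (33 listed, 27 matched), 3 were higher at day 7 and 3 lower. The hyaluronan linkers hapln1a (2.85 at day 7 and 1.91 uninjured) and hapln1b (3.90 at day 7 and 3.02 uninjured) were higher in zebrafish and the biglycan gene bgnb (-4.01 at day 7 and -3.09 uninjured) was lower. lum, for the small proteoglycan lumican, did not pass the threshold (-0.45 ± 0.67, adjusted p = 0.56).

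Matrix-degrading enzymes leaned to lower values in zebrafish, with 9 of 16 tested genes lower at day 7 and 2 higher (38 listed, 24 matched; median -1.07, uninjured -1.12). mmp2, the 72 kDa type IV collagenase, had 153, 170.2 and 216 CPM in cryoinjured zebrafish and 338, 135 and 336 CPM in cryoinjured platyfish. Uninjured, it had 53.9, 55.0 and 58.2 CPM in zebrafish and 17.7, 20.7 and 23.2 CPM in platyfish. At day 7 the difference missed the threshold (-0.59 ± 0.32, adjusted p = 0.123), which it passed without platyfish cryoinjured replicate 2 (-0.91, adjusted p = 0.00279). Uninjured, mmp2 was higher in zebrafish (1.44 ± 0.15, adjusted p = 1.41e-05). The response difference was -2.04 ± 0.39 (adjusted p = 0.0205) and was lost without platyfish cryoinjured replicate 3 (adjusted p = 0.0512), platyfish uninjured replicate 1 (adjusted p = 0.0597) or platyfish uninjured replicate 2 (adjusted p = 0.0549). mmp14b, the membrane-type enzyme that activates MMP2, was lower in zebrafish in both states (-3.85 at day 7 and -4.62 uninjured), while mmp14a did not pass at day 7 (0.53 ± 0.32, adjusted p = 0.169). Uninjured, mmp14a was lower in zebrafish (-0.72 ± 0.26, adjusted p = 0.0301), a call kept in 2 of 6 fits (adjusted p from 0.0062 to 0.0943 over those fits) and lost with the replicate block (adjusted p = 0.0515). mmp9, a gelatinase of inflammatory cells, was higher in zebrafish at day 7 (1.42 ± 0.27, adjusted p = 0.00108) and not past the threshold uninjured (0.40 ± 1.197, adjusted p = 0.775), where it passed without platyfish uninjured replicate 3 (3.09, adjusted p = 0.00361). Its response difference was not called, and lay between -1.72 and 1.71 over the 12 fits leaving out 1 library. timp2b, an inhibitor of these enzymes, was lower in both states (-3.34 at day 7 and -3.97 uninjured).

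Genes of dividing cells were lower in the injured zebrafish ventricle more often than higher. Of 70 listed S-phase and DNA replication genes 62 were matched and 47 tested; 4 were higher in zebrafish at day 7 and 21 lower (median -0.73), against 13 higher and 14 lower uninjured (median -0.06). Of 82 mitosis and cytokinesis genes 66 were matched and 40 tested; 1 was higher at day 7 and 25 lower (median -1.24), against 2 higher and 12 lower uninjured (median -0.78). No gene of either list passed edgeR's test of the response difference, so the wider gap at day 7 is a description of the medians. At an unadjusted p under 0.05, 16 S-phase genes passed, all with zebrafish over platyfish lower at day 7 than uninjured, and 2 mitosis genes passed. DESeq2 called 4 S-phase genes and 0 mitosis genes after adjustment, and 16 and 5 at an unadjusted p under 0.05. When 1 library was left out, lower calls ranged from 14 to 24 for S phase and from 19 to 26 for mitosis. Without zebrafish cryoinjured replicates 2 and 3 they were 25 and 29.

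The S-phase genes matched in both species summed to 490.4 to 614 CPM in cryoinjured zebrafish libraries and 827 to 1018 CPM in cryoinjured platyfish libraries, ranges that did not overlap, and to 395 to 479 CPM in uninjured zebrafish and 467 to 539 CPM in uninjured platyfish, ranges that did. The mitosis genes summed to 951 to 1267 CPM in cryoinjured zebrafish and 1242 to 1369 CPM in cryoinjured platyfish, ranges that overlapped, and to 891 to 923 CPM in uninjured zebrafish and 752 to 976 CPM in uninjured platyfish. A sum is set mostly by its abundant genes, and a median weighs each gene alike. pcna, the sliding clamp of DNA polymerase, had 51.9, 70.2 and 63.7 CPM in cryoinjured zebrafish and 85.5, 92.5 and 103 CPM in cryoinjured platyfish. Without injury it had 40.8, 53.5 and 37.9 CPM in zebrafish and 35.6, 45.3 and 49.1 CPM in platyfish. It was lower in zebrafish at day 7 (-0.60 ± 0.17, adjusted p = 0.00889), stayed so in 6 of 6 fits leaving out 1 library, and did not differ past the threshold uninjured (0.03 ± 0.18, adjusted p = 0.905). mcm2, part of the replicative helicase, had 3.45, 6.65 and 3.25 CPM in cryoinjured zebrafish and 25.6, 38.4 and 43.2 CPM in cryoinjured platyfish (-3.00 ± 0.34), but it was lower without injury too (-2.18 ± 0.52). mcm5, of the same helicase, did not pass at day 7 (0.28 ± 0.26, adjusted p = 0.361) and was higher in zebrafish uninjured (1.37 ± 0.34, adjusted p = 0.00497). ccnd1, the cyclin of the G1 phase, was higher in zebrafish in both states (1.96 at day 7 and 2.27 uninjured), and ccnd2b was lower in both (-5.08 at day 7 and -3.59 uninjured).

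mki67, the gene of the Ki-67 proliferation antigen, had 7.74, 25.1 and 15.8 CPM in cryoinjured zebrafish and 23.1, 26.6 and 25.3 CPM in cryoinjured platyfish, a difference that did not pass the threshold (-0.63 ± 0.36, adjusted p = 0.141) except without zebrafish cryoinjured replicate 2 (-1.10, adjusted p = 0.0132). aurkb, a kinase of chromosome segregation and cytokinesis, had 2.196, 2.73 and 2.99 CPM in cryoinjured zebrafish and 10.1, 12.4 and 12.4 CPM in cryoinjured platyfish (-2.14 ± 0.31, adjusted p = 0.000164), and was lower without injury (-1.29 ± 0.52, adjusted p = 0.0465), a call kept in 2 of 6 fits leaving out 1 library (adjusted p from 0.0163 to 0.121 over those fits) and lost with the replicate block (adjusted p = 0.0587). top2a, the topoisomerase of dividing cells, was lower at day 7 (-1.24 ± 0.29, adjusted p = 0.00345) and not past the threshold uninjured (-0.70 ± 0.44, adjusted p = 0.18), where it passed without zebrafish uninjured replicate 2 (-1.33, adjusted p = 0.0135). cdkn1a, the p21 inhibitor of the cell cycle, had 3.97, 4.51 and 1.82 CPM in cryoinjured zebrafish and 17, 9.87 and 13.6 CPM in cryoinjured platyfish (-1.96 ± 0.39, adjusted p = 0.00128), against 0.81 ± 0.47 uninjured (adjusted p = 0.147). Its response difference (-2.78 ± 0.64, adjusted p = 0.04) was kept in 3 of 12 fits (adjusted p from 0.0142 to 0.106 over those fits). In a whole ventricle these genes do not tell which cell type divides.

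**Figure D4:**
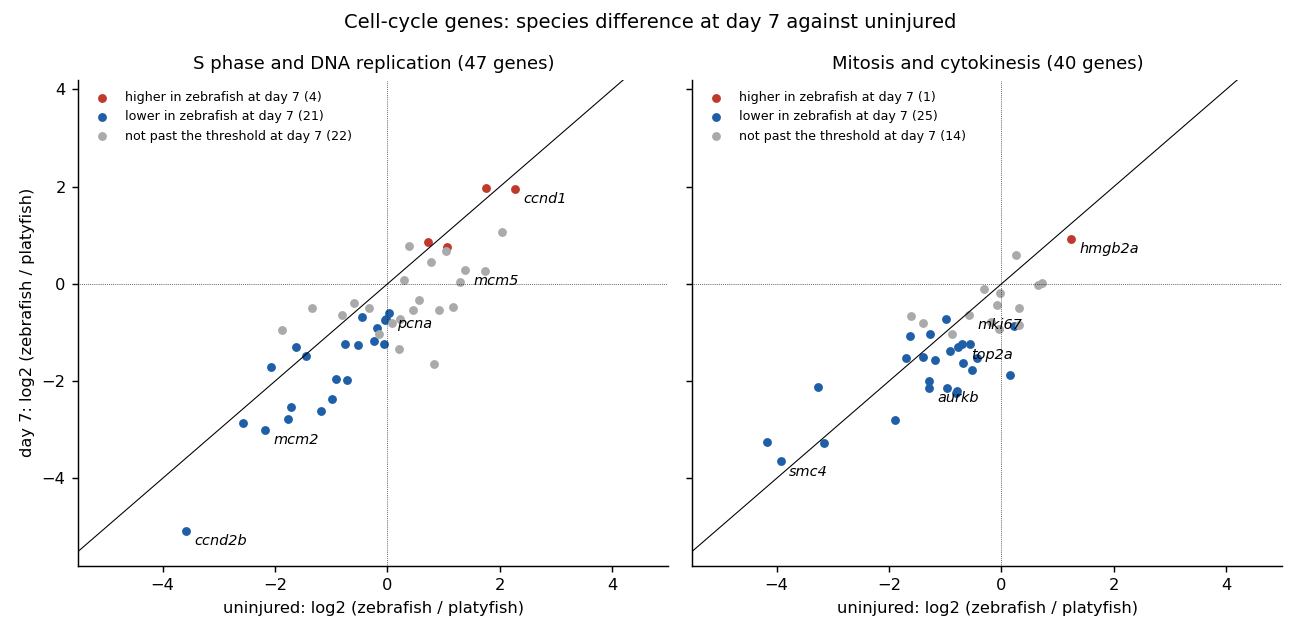
Log2 fold change of zebrafish over platyfish for the 47 S-phase and 40 mitosis genes tested, uninjured on the x axis and at day 7 on the y axis, with the line of equal differences. Blue genes (21 and 25) were lower in zebrafish at day 7 and red genes (4 and 1) higher, and most points lie below the line.

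Markers of immune cells gave no single direction. Of 54 macrophage and monocyte genes 28 were matched and 19 tested. At day 7, 7 were higher in zebrafish and 7 lower (median 0.29, uninjured -0.16), or 5 and 9 under scaling by tested-gene counts. marco, a scavenger receptor of macrophages, had 377, 243 and 353 CPM in cryoinjured zebrafish and 26.3, 46.0 and 26.1 CPM in cryoinjured platyfish, with no overlap (3.31 ± 0.28, adjusted p = 4.79e-06). Uninjured, it had 87.6, 99.5 and 78.7 CPM in zebrafish and 11.3, 27.9 and 64.5 CPM in platyfish and missed the threshold (1.37 ± 0.55, adjusted p = 0.0546), passing it with the replicate block (adjusted p = 0.0243). irf8, a transcription factor needed for macrophage development, was higher in zebrafish in both states (2.25 at day 7 and 1.53 uninjured), the uninjured call being kept in 3 of 6 fits (adjusted p from 0.00373 to 0.094 over those fits). apoeb, an apolipoprotein of macrophages and other cells, had 10.98, 32.1 and 68.3 CPM in cryoinjured zebrafish and 369, 271 and 248 CPM in cryoinjured platyfish and was lower in both states (-3.00 at day 7 and -6.54 uninjured). mpeg1.2, a pore-forming protein of macrophages, was lower at day 7 (-0.78 ± 0.29, adjusted p = 0.0356), a call that was lost without zebrafish cryoinjured replicate 1 (-0.79), zebrafish cryoinjured replicate 2 (-0.67) or platyfish cryoinjured replicate 2 (-0.40) and with the replicate block (adjusted p = 0.0679). csf1ra, the receptor for the macrophage growth factor CSF1, was not past the threshold in either state (-0.22 ± 0.31 at day 7), passing it at day 7 without zebrafish cryoinjured replicate 1 (-0.64, adjusted p = 0.0435). mpeg1.1 and cd74a were not matched. The matched macrophage genes summed to 1604 to 2189 CPM in cryoinjured zebrafish and 6537 to 8589.7 CPM in cryoinjured platyfish, and to 995 to 1233 CPM in uninjured zebrafish and 8436 to 10617 CPM in uninjured platyfish. Without mrc1a, which had 14 counts over the cryoinjured zebrafish libraries and was the largest part of the platyfish sum, the day 7 sums were 1603 to 2188 CPM in zebrafish and 3070.3 to 3631 CPM in platyfish.

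Among 7 tested neutrophil and granulocyte genes (24 listed, 12 matched) 3 were higher in zebrafish at day 7 and 2 lower. The list summed to 739 to 1165 CPM in cryoinjured zebrafish and 280.1 to 296 CPM in cryoinjured platyfish. Most of the zebrafish sum was s100a10b, with 705 ± 193 CPM in cryoinjured zebrafish and no count in cryoinjured platyfish. The gap between these sums therefore rests largely on 1 untested gene, which is no marker of neutrophils alone. It is also induced in injured epicardium of zebrafish, and its copy s100a10a stands in the epicardial list. With the 2 copies summed, the species did not differ past the threshold at day 7 (-0.12 ± 0.26, adjusted p = 0.701, edgeR). Of 13 tested lymphocyte genes (46 listed, 23 matched) 2 were higher and 7 lower, and of the 2 that were higher, cd3eap encodes an RNA polymerase I subunit and is no marker of T cells, and its call was kept in 2 of 6 fits leaving out 1 library (adjusted p from 0.0121 to 0.12 over those fits). The lymphoid sums were 206 to 253 CPM in cryoinjured zebrafish and 339.7 to 406 CPM in cryoinjured platyfish. Thrombocyte genes, 3 higher and 4 lower of 11 tested (21 listed, 15 matched), summed to 780.3 to 853 CPM in cryoinjured zebrafish and 969 to 1198 CPM in cryoinjured platyfish. Red cell genes, 3 higher and 8 lower of 13 tested (32 listed, 21 matched), summed to 485 to 853 CPM in cryoinjured zebrafish and 1011 to 2064 CPM in cryoinjured platyfish, and the part of blood in the results was not tested.

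Of 28 tested cytokine, chemokine and receptor genes (84 listed, 46 matched) 8 were higher in zebrafish at day 7 and 14 lower (median -0.37, uninjured -1.22). socs3a, a feedback inhibitor of cytokine signalling through JAK and STAT proteins, had 726, 1240.3 and 1328 CPM in cryoinjured zebrafish and 70.5, 40.8 and 43.2 CPM in cryoinjured platyfish. In uninjured ventricles it had 473, 285 and 352 CPM in zebrafish and 81.9, 34.8 and 70.5 CPM in platyfish. The species did not overlap in either state (4.41 ± 0.32 at day 7, 2.57 ± 0.33 uninjured), and its response difference missed the threshold (1.84 ± 0.46, adjusted p = 0.0539). Its partners stat3 (-3.09), the signal transducer, and jak1 (-5.57), the kinase, were lower in zebrafish at day 7, and they were lower uninjured (-2.54 and -4.87). cxcl12a, a chemokine of epicardium and vessels, had 19.8, 40.0 and 45.7 CPM in cryoinjured zebrafish and 112, 48.98 and 58.0 CPM in cryoinjured platyfish. Uninjured, it had 5.34, 8.76 and 5.32 CPM in zebrafish and 45.7, 71.3 and 143 CPM in platyfish. The day 7 difference (-1.05 ± 0.37, adjusted p = 0.0272) was smaller than the uninjured one (-3.75 ± 0.45, adjusted p = 7.35e-05), and its call was lost without zebrafish cryoinjured replicate 1 (adjusted p = 0.079) or platyfish cryoinjured replicate 1 (adjusted p = 0.14) and with the replicate block (adjusted p = 0.0611). Its response difference of 2.69 ± 0.63 (adjusted p = 0.0409) was kept in 4 of 12 fits (adjusted p from 0.0183 to 0.104 over those fits) and missed the threshold with the block (adjusted p = 0.0817). With the cxcl12 copies summed, both missed it in edgeR: -0.62 ± 0.34 at day 7 (adjusted p = 0.126) and a response difference of 2.21 ± 0.56 (adjusted p = 0.055). tnfb, a tumour necrosis factor, was higher in zebrafish at day 7 (1.53 ± 0.41, adjusted p = 0.00711) and not past the threshold uninjured (-0.05 ± 0.51, adjusted p = 0.938).

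Only 4 complement genes (40 listed, 20 matched) could be tested. c7a, a component of the membrane attack complex, had 65.5, 78.5 and 79.1 CPM in cryoinjured zebrafish and 17.5, 12.22 and 21.2 CPM in cryoinjured platyfish. Without injury it had 83.9, 71.9 and 102 CPM in zebrafish and 1.97, 3.74 and 1.83 CPM in platyfish. The gap at day 7 (2.13 ± 0.22, adjusted p = 2.08e-05) was smaller than without injury (5.08 ± 0.29), with a response difference of -2.96 ± 0.37 (adjusted p = 0.00239) kept in 12 of 12 fits. clu, clusterin, a secreted chaperone that restrains complement, had 176, 192 and 268 CPM in cryoinjured zebrafish and 88.5, 46.5 and 71.1 CPM in cryoinjured platyfish. In uninjured ventricles it had 23.5, 23.5 and 22.8 CPM in zebrafish and 19.8, 29.2 and 17.5 CPM in platyfish. It was higher in zebrafish at day 7 (1.63 ± 0.26, adjusted p = 0.000306) and not past the threshold uninjured (0.07 ± 0.20, adjusted p = 0.764). Its response difference (1.55 ± 0.35, adjusted p = 0.0356) was kept in 3 of 12 fits (adjusted p from 0.0225 to 0.0876 over those fits) and missed the threshold with the block (adjusted p = 0.0975). c4b was lower in zebrafish in both states (-1.43 at day 7 and -2.97 uninjured), and masp1 did not pass at day 7 (-0.46 ± 0.49, adjusted p = 0.423).

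Antigen presentation genes split evenly at day 7, 6 higher and 6 lower of 18 tested (37 listed, 22 matched). Under scaling by tested-gene counts the split was 5 and 10. Among them b2m, the light chain of class I molecules, was higher in zebrafish in both states (3.66 at day 7 and 2.93 uninjured). Of 17 interferon response genes (55 listed, 21 matched) 3 were higher at day 7 and 9 lower (median -0.73, uninjured -1.28). rsad2, the antiviral viperin, was among the lower ones (-3.38 at day 7 and -2.60 uninjured) and stat1a, which carries the interferon signal, among the higher (2.01 at day 7 and 1.54 uninjured).

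**Figure D5:**
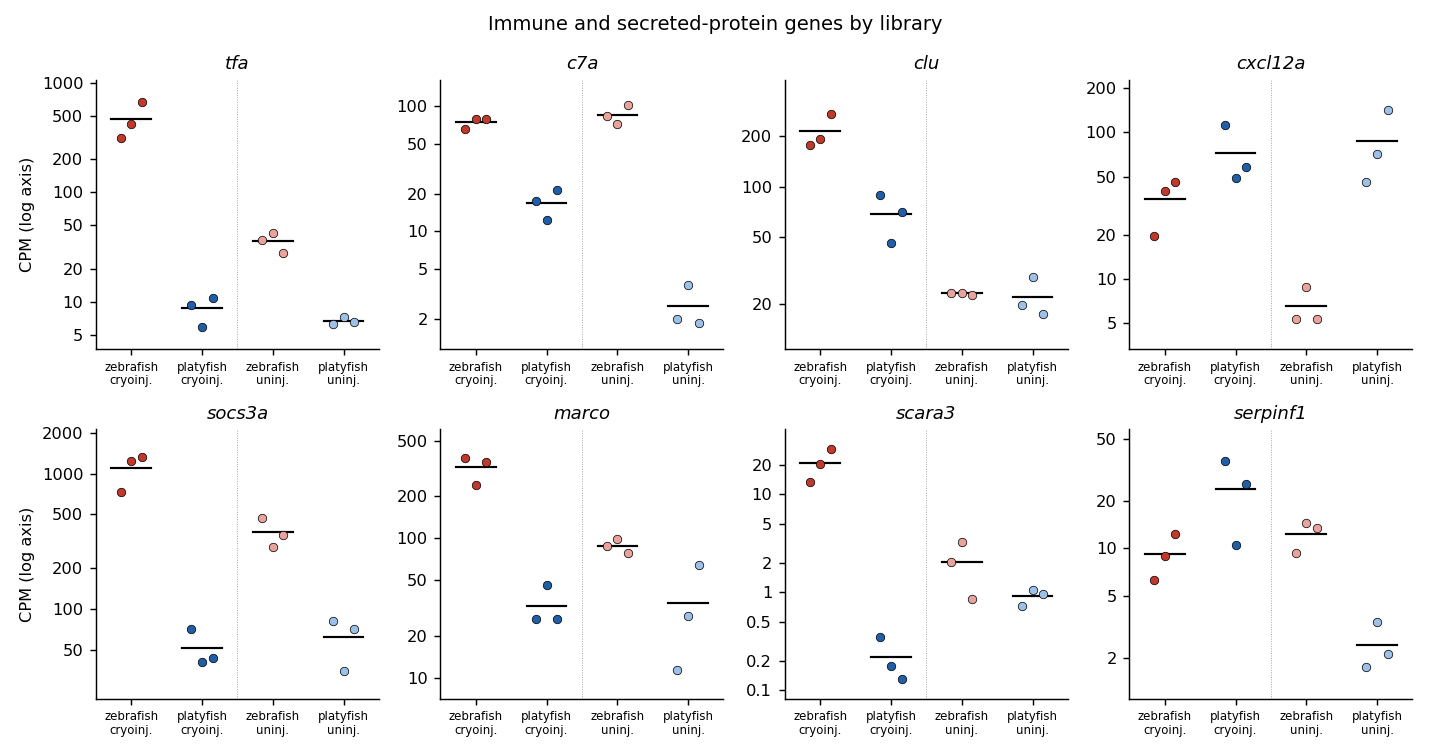
CPM on a log axis of 8 immune and secreted-protein genes in each library, for cryoinjured zebrafish and platyfish (left of the dotted line) and uninjured zebrafish and platyfish (right). Points are libraries and lines are means over 3. tfa, clu and scara3 are highest in the 3 cryoinjured zebrafish libraries, and c7a and serpinf1 are lowest in the 3 uninjured platyfish libraries.

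Epicardial genes were called in both directions: of 18 tested (39 listed, 27 matched), 6 were higher at day 7 and 9 lower (median -1.14, uninjured -1.62). Over all tested genes 34.6% were higher and 36% lower at day 7, with a median of -0.01. The response differed for 5, and for 4 of them, fn1a, ptn, cxcl12a and bnc2, zebrafish over platyfish was higher at day 7 than uninjured. Among all tested genes the response was called higher for 1.24% and lower for 1.36%. tcf21, a transcription factor that marks resting epicardium and fibroblasts, had 1.99, 5.94 and 1.95 CPM in cryoinjured zebrafish and 31.3, 32.9 and 47.3 CPM in cryoinjured platyfish and was lower in both states (-3.496 at day 7 and -5.33 uninjured). wt1b (-3.65) and tbx18 (-3.06), transcription factors of the epicardium, were also lower in zebrafish at day 7, with uninjured values of -3.47 and -3.87. bnc2, a zinc finger gene, had 9.94, 16.4 and 19.9 CPM in cryoinjured zebrafish and 0.405, 1.17 and 1.45 CPM in cryoinjured platyfish. Uninjured, it had 2.33, 2.19 and 2.34 CPM in zebrafish and 1.24, 0.76 and 1.32 CPM in platyfish. Its response difference (2.87 ± 0.63, adjusted p = 0.0321) was kept in 4 of 12 fits (adjusted p from 0.016 to 0.0852 over those fits) and missed the threshold with the replicate block (adjusted p = 0.0738). Of 30 fibroblast, pericyte and smooth muscle genes (64 listed, 45 matched) 8 were higher at day 7 and 15 lower, among the lower ones pdgfrb, a receptor for platelet-derived growth factors on pericytes (-1.88 at day 7 and -2.86 uninjured).

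Of 29 endothelial and endocardial genes (55 listed, 40 matched) 9 were higher in zebrafish at day 7 and 9 lower, or 8 and 13 under scaling by tested-gene counts. cdh5, the adhesion molecule of endothelial junctions, was higher in both states (4.84 at day 7 and 3.68 uninjured) and so was kdrl, a VEGF receptor (1.49 at day 7 and 0.79 uninjured). stab2, a scavenger receptor of endothelium that takes up hyaluronan, had 2.196, 4.63 and 2.60 CPM in cryoinjured zebrafish and 1146, 641 and 1073 CPM in cryoinjured platyfish (-8.25, and -10.91 uninjured). Among 35 TGF-beta and activin pathway genes (87 listed, 61 matched) 6 were higher at day 7 and 21 lower (median -1.42, uninjured -1.11), with tgfbr3, the co-receptor betaglycan, the lowest (-8.11 at day 7 and -7.45 uninjured). Of 45 growth factor, retinoid, Notch and Hippo genes (113 listed, 85 matched) 14 were higher and 20 lower (median -0.24, uninjured -0.55), and the responses of 4 differed: fgfr1a (1.71), ptn (2.87), lrp1aa (1.72) and rbp4 (2.05). These calls were kept in 5, 5, 8 and 3 of 12 fits, with adjusted p up to 0.107, 0.107, 0.0613 and 0.0978 over them, and those of fgfr1a and ptn missed the threshold with the replicate block (adjusted p = 0.0936 and 0.0801). igf2b, an insulin-like growth factor, was lower in zebrafish in both states (-3.21 at day 7 and -3.15 uninjured). nrarpa, a feedback target of Notch, was the highest of the list (5.90 at day 7 and 3.80 uninjured). aldh1a2, the retinoic acid-producing enzyme of activated epicardium, was matched but had too few counts in zebrafish to test, with 0.732, 1.66 and 1.69 CPM in cryoinjured zebrafish and 62.5, 37.5 and 50.1 CPM in cryoinjured platyfish.

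Heart muscle genes were high in both species. myl7, the light chain of heart myosin, ranked at percentile 99.99 of tested genes in cryoinjured zebrafish and 99.98 in cryoinjured platyfish. Of 33 sarcomere genes (61 listed, 36 matched) 19 were higher in zebrafish at day 7 and 9 lower (median 0.91, uninjured 0.52). This became 13 and 12 when libraries were scaled by tested-gene counts. tcap, which anchors titin, had 1312, 1766 and 2270.1 CPM in cryoinjured zebrafish and 784, 929.6 and 798 CPM in cryoinjured platyfish (1.09 ± 0.21, adjusted p = 0.000995), and uninjured it did not pass the threshold (0.02 ± 0.63, adjusted p = 0.977). The response difference was not called for any of the 33 sarcomere genes, tcap included. nppb, a natriuretic peptide released by strained heart muscle, had 1544, 1814 and 2319 CPM in cryoinjured zebrafish and 3312, 4514 and 3705 CPM in cryoinjured platyfish. It was lower in zebrafish at day 7 and uninjured by about the same amount (-1.02 ± 0.19 at day 7 and -0.98 ± 0.39 uninjured), the uninjured call being kept in 2 of 6 fits (adjusted p from 0.0176 to 0.13 over those fits). nppa and vmhc were not matched. Of 17 cardiac transcription factor and natriuretic genes (36 listed, 23 matched) 4 were higher at day 7 and 8 lower, with lower calls from 7 to 11 when 1 library was left out. hand2 (1.64) and gata5 (2.27) were higher and gata6 (-1.25) was lower, each as uninjured (1.08, 3.09 and -0.96).

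Of 16 calcium-handling and channel genes (61 listed, 34 matched) 9 were higher at day 7 and 6 lower. Energy metabolism lists were split: 16 higher and 18 lower of 37 creatine kinase and glycolysis genes (67 listed, 46 matched), 13 and 13 of 33 for fatty acid oxidation (56 listed, 40 matched), 9 and 10 of 24 for the TCA cycle (43 listed, 27 matched), and 28 and 18 of 58 for the nuclear-encoded respiratory chain (97 listed, 64 matched). Under scaling by tested-gene counts the last gave 15 higher and 28 lower, and fatty acid oxidation 10 and 15. No mitochondrially encoded gene was matched by symbol. Cytosolic ribosomal protein genes were higher in zebrafish at day 7 for 42 of 63 and lower for 12 (81 listed, 67 matched). Under scaling by tested-gene counts these numbers were 21 and 17. All 10 of these genes with log2 fold changes below -5, such as rpl10 (-8.36) and rpl39 (-7.58), were also below -5 uninjured (-8.08 and -7.44). The cause was not tested. Of 57 genes for protein folding in the endoplasmic reticulum (73 listed, 65 matched), through which collagen is secreted, 16 were higher at day 7 and 24 lower. Under scaling by tested-gene counts these numbers were 7 and 35. For 4, rpn2 (-1.71), pdia5 (-1.08), ssr4 (-1.17) and calua (-3.35), the response difference passed the threshold, with zebrafish over platyfish lower at day 7 than uninjured. Over all tested genes 1.36% were called in that direction. The call of pdia5 was kept in 3 of 12 fits (adjusted p from 0.0338 to 0.108 over those fits) and missed the threshold with the replicate block (adjusted p = 0.0676).

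The gene tfa, for transferrin, the iron carrier of blood plasma, showed one of the widest day 7 gaps that was not already as wide without injury. It had 311, 425 and 667 CPM in cryoinjured zebrafish and 9.31, 5.93 and 10.8 CPM in cryoinjured platyfish. Without injury it had 36.4, 42.9 and 27.8 CPM in zebrafish and 6.22, 7.30 and 6.53 CPM in platyfish. Every cryoinjured zebrafish library lay above all others. The day 7 difference was 5.75 ± 0.36 (adjusted p = 7.63e-07), the uninjured one 2.42 ± 0.20 (adjusted p = 3.53e-06) and the response difference 3.33 ± 0.41 (adjusted p = 0.00239), kept in 12 of 12 fits. tfa ranked at percentile 96.1 in cryoinjured zebrafish and 23.1 in cryoinjured platyfish. Transferrin is made mainly by liver in vertebrates. The matched liver transcripts, of which only 3 could be tested (38 listed, 25 matched), summed to 436 to 899 CPM in cryoinjured zebrafish and 329.7 to 418 CPM in cryoinjured platyfish, and to 104 to 125 CPM in uninjured zebrafish and 490.3 to 673 CPM in uninjured platyfish. tfa itself makes up most of the zebrafish sum at day 7. Of the other 2, rbp4, the plasma retinol carrier, was higher in zebrafish at day 7 with 116, 194 and 222 CPM in cryoinjured zebrafish and 28.6, 52.8 and 75.0 CPM in cryoinjured platyfish (1.77 ± 0.35, adjusted p = 0.00129) and not past the threshold uninjured (-0.29 ± 0.24, adjusted p = 0.293), and fabp10b did not pass the threshold (-0.12 ± 0.43, adjusted p = 0.82). Most of the cryoinjured platyfish sum was cyp2ad2, an untested liver transcript with 252 ± 30.8 CPM there. It had 5 counts over the 3 cryoinjured zebrafish libraries, so the sums of the species rest on different genes. The part of liver RNA in these values was not tested. Exocrine pancreas transcripts (22 listed, 9 matched) summed to 2.73 to 5.12 CPM in cryoinjured zebrafish and 2.35 to 4.50 CPM in cryoinjured platyfish.

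Of 32 oxidative stress and iron genes (66 listed, 37 matched) 12 were higher at day 7 and 15 lower, and responses differed for tfa, txnipa (1.01) and nfe2l2a (1.18). The call of txnipa was kept in 3 of 12 fits (adjusted p from 0.0116 to 0.0852 over those fits) and missed the threshold with the replicate block (adjusted p = 0.0971), and that of nfe2l2a was kept in 8 (adjusted p from 0.0122 to 0.0596 over those fits). nfe2l2a, the NRF2 regulator of antioxidant genes, had 106, 139 and 135 CPM in cryoinjured zebrafish and 153, 217 and 227 CPM in cryoinjured platyfish; its day 7 difference (-0.65 ± 0.19, adjusted p = 0.0129) was smaller than the uninjured one (-1.84 ± 0.13) and was lost without platyfish cryoinjured replicate 3 (-0.54, adjusted p = 0.0558). The iron receptor genes tfr1a (-3.87) and tfr1b (-2.90) were lower in zebrafish at day 7, as uninjured (-2.85 and -1.40).

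Markers of atrium and bulbus arteriosus, the chambers cut away, gave 2 higher and 3 lower of 6 tested (14 listed, 8 matched) and summed to 80.7 to 117 CPM in cryoinjured zebrafish and 517 to 629 CPM in cryoinjured platyfish, with 82.6 to 99.1 CPM in uninjured zebrafish and 409.6 to 500.5 CPM in uninjured platyfish. Skeletal muscle transcripts, of which 2 were tested (31 listed, 13 matched) and both were higher in zebrafish, summed to 204 to 306 CPM in cryoinjured zebrafish and 3.35 to 21.7 CPM in cryoinjured platyfish. The part of either tissue in the gene lists above was not tested.

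Among genes called both at day 7 and for the response difference, with the same sign and at least 20 CPM in the higher species, the 8 with the largest response difference in each direction are given here. scara3, a class A scavenger receptor, had 13.2, 20.4 and 28.5 CPM in cryoinjured zebrafish and 0.347, 0.176 and 0.132 CPM in cryoinjured platyfish. In uninjured ventricles it had 2.04, 3.23 and 0.851 CPM in zebrafish and 0.726, 1.05 and 0.953 CPM in platyfish. The cryoinjured platyfish values rest on 6, 3 and 2 counts, so the size of the gap is uncertain. Its day 7 difference was 6.48 ± 0.49 (adjusted p = 2.23e-06) and its response difference 5.32 ± 0.75 (adjusted p = 0.00542), kept in 12 of 12 fits. The MAP kinase phosphatase gene dusp2 had 45.7, 46.7 and 73.0 CPM in cryoinjured zebrafish and 20.1, 15.7 and 20.2 CPM in cryoinjured platyfish (1.56 ± 0.23 at day 7, -0.43 ± 0.27 uninjured), and lpin1, a phosphatidate phosphatase of lipid synthesis, had 38.59, 26.8 and 33.6 CPM in cryoinjured zebrafish and 19.4, 16.3 and 20.9 CPM in cryoinjured platyfish (0.81 ± 0.21 at day 7 and -1.06 ± 0.24 uninjured). The response calls of both were kept in 12 of 12 fits, although that of dusp2 missed the threshold with the replicate block (adjusted p = 0.0652). The other members of this group were tfa, rbp4, the transporter genes slc43a3b (3.24 at day 7, 0.47 uninjured) and slc7a6 (3.502 at day 7 and 0.81 uninjured), and junba (2.40 at day 7 and 0.62 uninjured), a JUN family transcription factor whose response call was kept in 1 of 12 fits (adjusted p from 0.0203 to 0.11 over those fits) and missed the threshold with the replicate block (adjusted p = 0.0804). The call of rbp4 was kept in 3 of 12 fits (adjusted p from 0.0174 to 0.0978 over those fits), and those of slc43a3b and slc7a6 in 12.

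In the opposite direction, serpinf1, the anti-angiogenic factor PEDF, had 6.27, 8.91 and 12.4 CPM in cryoinjured zebrafish and 35.7, 10.5 and 25.8 CPM in cryoinjured platyfish. Uninjured, it had 9.33, 14.4 and 13.4 CPM in zebrafish and 1.76, 3.39 and 2.13 CPM in platyfish. It was lower in zebrafish at day 7 (-1.39 ± 0.44, adjusted p = 0.0168), with the ranges meeting at platyfish replicate 2, and higher in zebrafish uninjured (2.35 ± 0.30, adjusted p = 7.55e-05). The day 7 call was lost without zebrafish cryoinjured replicate 1 (adjusted p = 0.0606) or platyfish cryoinjured replicate 1 (adjusted p = 0.088), while the response difference of -3.75 ± 0.60 (adjusted p = 0.0129) was kept in 12 of 12 fits. cntf, ciliary neurotrophic factor, had 3.97, 5.94 and 2.47 CPM in cryoinjured zebrafish and 73.9, 41.8 and 76.3 CPM in cryoinjured platyfish (-3.94 ± 0.35 at day 7, -1.65 ± 0.23 uninjured), with the response call kept in 9 of 12 fits (adjusted p from 0.00961 to 0.0549 over those fits). adamts15a, a matrix protease, dpp3, a dipeptidase, and blvra, biliverdin reductase, were each lower in zebrafish at day 7 (-3.73, -3.51 and -3.09), with uninjured values of -0.92, -1.07 and -0.68, and in each zebrafish cryoinjured replicate 2 was the lowest library. The 3 cryoinjured zebrafish libraries had 9.31, 1.31 and 4.43 CPM of adamts15a, 5.23, 1.07 and 3.38 CPM of dpp3 and 5.23, 1.19 and 3.38 CPM of blvra, and the cryoinjured platyfish libraries 79.5, 50.9 and 72.7 CPM, 37.9, 37.9 and 36.2 CPM and 24, 31.7 and 28.6 CPM. Their response calls were kept in 6, 5 and 4 of 12 fits, with adjusted p up to 0.0653, 0.0954 and 0.0918. tppp3 (-1.99 at day 7, 0.65 uninjured), a tubulin-binding protein, was kept in 12 of 12, apobec2b (-8.41 at day 7 and -6.04 uninjured) in 4 (adjusted p from 0.025 to 0.109 over those fits) and si:ch211-136a13.1 (-2.81 at day 7 and 0.68 uninjured) in 8 (adjusted p from 0.0135 to 0.0652 over those fits). For apobec2b the zebrafish means were only 0.526 ± 0.471 CPM cryoinjured and 2.00 ± 0.854 CPM uninjured (SD, n = 3 each). The size of its response difference is therefore uncertain. In platyfish it had 177 ± 37.9 CPM cryoinjured and 133 ± 5.29 CPM uninjured.

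The largest day 7 differences were present in the same direction without injury for all 24 genes with the largest values (at least 50 CPM in the higher species and 1 CPM in the lower). rbpms2b, an RNA-binding protein of heart muscle, had 3844, 3834 and 3948 CPM in cryoinjured zebrafish and 5.49, 3.00 and 3.44 CPM in cryoinjured platyfish (9.92 at day 7, 11.56 uninjured). Summing copies gave 10.61 ± 0.30 but added counts in zebrafish only (6408 CPM), and the platyfish sum stayed at 3.98 CPM. The related symbol rbpms had 1448 ± 87.1 CPM in cryoinjured platyfish and 10 counts over the 3 cryoinjured zebrafish libraries. Whether these symbols name the same genes in both species was not tested. Besides rbpms2b, the 11 that were higher were mbnl3 (8.597), ckbb (8.39), f10 (8.14), ppdpfa (7.67), slc4a2a (7.66), mgll (7.54), si:dkey-205h13.1 (7.52), jund (7.47), zgc:122979 (7.32), ppp1r13ba (7.30) and hspb6 (7.06). The 12 that were lower were si:dkey-159f12.2 (-9.96), slc16a1b (-9.04), rpl10, stab2, tgfbr3, uqcrq (-7.79), dnajb6b (-7.75), uqcrb (-7.69), rpl39, itga1 (-7.53), rap1ab (-7.44) and tnnc1b (-7.34). Summing gene copies shrank many of these. The brain-type creatine kinase pair, of which ckbb is one copy, differed by 1.21 ± 0.14 when summed, and the troponin C pair tnnc1a and tnnc1b by 0.78 ± 0.18, with the sign turned round.

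A further 552 matched genes passed the count filter in zebrafish only and 2278 in platyfish only, and they were not tested. Among them, 12 of at least 50 CPM in cryoinjured zebrafish had no count in any cryoinjured platyfish library, and 96 of at least 50 CPM in cryoinjured platyfish had none in cryoinjured zebrafish. The second set holds rpl32, a ribosomal protein gene, and slc25a6, a mitochondrial ATP carrier. Both were listed at 0 in the cryoinjured zebrafish libraries, and averaged 2189 ± 224 CPM and 2173 ± 365 CPM in cryoinjured platyfish (SD, n = 3). A 0 or a very low count in zebrafish is not taken here as a measure of expression for such genes, and its cause was not tested. Genes of particular cell types were among the untested ones too, and whether their low zebrafish counts reflect expression was not tested: tnni1a, a troponin, was listed at 0 in cryoinjured zebrafish and averaged 1948 ± 239 CPM in cryoinjured platyfish, and mrc1a, a mannose receptor of macrophages and sinus endothelium, had 14 counts over the 3 cryoinjured zebrafish libraries and 3999 ± 1358 CPM in cryoinjured platyfish. Summed over the tnni1 symbols ending in a or b, zebrafish was the higher species. The sums were 5915 ± 465 CPM in cryoinjured zebrafish and 1966 ± 236 CPM in cryoinjured platyfish (1.55 ± 0.15, adjusted p = 1.08e-05, edgeR). That sum leaves out tnni1d, with 3749 ± 496 CPM in cryoinjured platyfish and no count in cryoinjured zebrafish. A difference over all tnni1 copies was not tested. In zebrafish only, ndufa4l averaged 2316 ± 155 CPM and s100a10b, an annexin partner induced in injured epicardium of zebrafish, 705 ± 193 CPM, both with no count in cryoinjured platyfish. Its copy s100a10a was lower in zebrafish (-4.95 at day 7 and -5.45 uninjured), and the 2 copies summed to 729.9 ± 203 CPM in cryoinjured zebrafish and 770.5 ± 219.9 CPM in cryoinjured platyfish, a difference of -0.12 ± 0.26 (adjusted p = 0.701). Uninjured sums were 450.2 ± 27.4 CPM in zebrafish and 86.7 ± 20.7 CPM in platyfish, with a response difference of -2.47 ± 0.36 (adjusted p = 0.00502).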

How the data were processed

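Poly(A) RNA of pooled ventricles was prepared as stranded libraries, per the labels' protocols. Per the submitters' processing notes, reads were checked with FastQC, aligned with HISAT2 2.2.1 and counted with featureCounts 2.0.1. GRCz11, a zebrafish genome, was the 1 build named there, for the platyfish libraries too, and the platyfish build, annotation releases and strand setting are not given in the sources used here. The deposited files hold raw counts per gene for each species, and a normalised count signal that the authors obtained with DESeq2 1.38.3. In each library that signal was the count divided by 1 constant, so raw counts were tested and the normalised tables supplied gene symbols.

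Members, gene lists and tests were chosen with earlier results of these data known. Symbols were compared in lower case. A gene was tested if edgeR's count filter kept it in both species. Libraries were scaled by TMM and compared with edgeR 4.0.16 in R 4.3.3 (quasi-likelihood test, 3 libraries a group, Benjamini-Hochberg adjustment over all tested genes, threshold 0.05). The species were first compared over the 6 libraries of one state. The response difference was a contrast of 4 group means over 12 libraries, scaled within each species, because counts of the species were not assumed comparable in total. The fits were run on simulated counts with 200 genes changed. Far more genes were called in the species comparisons, so that run does not cover how the scaling behaves there. Gene copies were summed over symbols differing by a final a or b, which also joins different genes, such as nppa with nppb and top2a with top2b. Copies with other endings, such as tnni1d, are left out of these sums. The sums were fitted with TMM scaling only. With 3 pools a group, p-values set a difference against the spread between pools, and not between fish. The labels file the replicate number under a batch tag. Deviations of same-numbered cryoinjured libraries correlated across species at -0.0156, -0.0298 and -0.0143, so the species comparisons had no replicate block. For the response difference, the block joined uninjured and cryoinjured libraries of one number within a species. That correlation does not cover this pairing, and the main fit of the response difference had no block either. Blocked values are given where the block changed the call of a gene named here.

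Named genes were 12 per direction by day 7 difference, 8 per direction by response difference, members of 37 lists, and a panel of 22 genes. DESeq2 1.42.0, limma 3.58.1, other scalings, filters, ranks, summed copies, a fold threshold and leaving out libraries were tried as alternatives. Figures were drawn with matplotlib 3.10.9 from tables made with pandas 2.3.3.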

Additional observations from a re-analysis of the deposited data

Results flagged for a closer look

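The 16 genes here are the 8 per direction with the largest response difference, among genes with at least 20 CPM in the higher species at day 7. In each, the day 7 and the uninjured difference between the species were called different by edgeR's quasi-likelihood test. Each was also called between the species at day 7, with a gap of the same sign. Other genes called in this way are not given here. Relative to uninjured, zebrafish over platyfish was higher at day 7 on the log2 scale by 5.32 for scara3, 3.33 for tfa, 2.77 for slc43a3b, 2.69 for slc7a6, 2.05 for rbp4, 1.98 for dusp2, 1.86 for lpin1 and 1.78 for junba. The response difference was -3.75 for serpinf1, -3.49 for si:ch211-136a13.1, -2.82 for adamts15a, -2.65 for tppp3, -2.45 for dpp3, -2.41 for blvra, -2.37 for apobec2b and -2.30 for cntf. Groups of 3 libraries are too small for a test of single outlying libraries.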

How the results depend on the processing

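Direct comparison of raw counts between species is limited by gene length and annotation, and an offset by gene length was not run because no lengths for both species were used. At day 7, scaling by tested-gene counts gave 1813 genes higher in zebrafish, and a test against a fold of 2 gave 1596 higher and 1843 lower. Lower genes numbered 4911 with no filter on low counts (12911 genes) and 4577 where 1 species could pass it (10630 genes). DESeq2 gave 2827 and 2960, summed copies 2954 and 3080, ranks 3106 and 2719, and the replicate block 2667 and 2809. Fits leaving out 1 library gave 2552 to 2758 higher and 2600 to 2866 lower. Uninjured, scaling by tested-gene counts gave 1961 higher.

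The response difference moved most: DESeq2 called 338 higher and 290 lower, the replicate block 41 and 49, and fits without zebrafish cryoinjured replicates 2 and 3, an alternative chosen after seeing the data, 7 and 12. Leaving out 1 library gave 33 to 187 higher and 32 to 275 lower; the highest counts, 187 and 275, came without zebrafish cryoinjured replicate 1, and the lowest, 33 higher without platyfish uninjured replicate 2 and 32 lower without platyfish uninjured replicate 1. Of 129 genes examined under the block, it changed 4 calls at day 7, 7 uninjured and 14 of the response difference. Blocked adjusted p not given above were 0.0607 for pdia5 at day 7 (lost), 0.0656 for bnc2 and 0.073 for txnipa uninjured (lost), 0.044 for blvra and 0.0382 for tppp3 uninjured (gained), and, for the response difference, 0.0981 for rbpms2b and 0.119 for stab2 (lost) and 0.0436 for nrarpa (gained).

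Day 7 signs turned, the cause not being tested, in 28 of 2580 gene values. With copies summed the values were 0.20 for apobec2b, -0.39 for calua, -0.40 for col1a1b, 0.73 for fn1a, -2.96 for mmp14a, 1.74 for nppb, 0.78 for tnnc1b and 0.53 for top2a. For nppb and top2a the sum joins different genes by name, so those values are not sums of copies. Under scaling by tested-gene counts they were -0.13 for col1a2, -0.32 for mcm5, -0.070 for mmp14a and -0.088 for pdia5. Where 1 species could pass the filter they were 0.0022 for fabp10b, 0.0079 for loxl2b and 0.029 for plod2. In percentile ranks they were 6.003 for fabp10b, 2.68 for loxl2b, 1.69 for lum, 1.11 for masp1 and -0.025 for tnnc1a. Without zebrafish cryoinjured replicates 2 and 3 they were 0.37 for csf1ra and -0.051 for mcm5. Leaving out 1 cryoinjured library gave -0.43 to 0.22 for fabp10b, above 0 without zebrafish replicate 2 (0.055) or platyfish replicate 1. It gave -0.31 to 0.016 for loxl2b, above 0 without platyfish replicate 3, and -0.91 to 0.18 for lum, above 0 without platyfish replicate 1. For plod2 it gave -0.38 to 0.19, above 0 without zebrafish replicate 1 (0.044) or platyfish replicate 1.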

Other observations

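Subunits of the proteasome, the complex that degrades tagged proteins, were more often lower in zebrafish at day 7 than without injury. Of 43 matched psma, psmb, psmc and psmd genes 39 were tested; 4 were higher at day 7 and 25 lower (median log2 fold change -0.46), against 14 higher and 11 lower uninjured (median -0.03). The response difference passed the threshold for 7 of them, 1 higher and 6 lower, beside 1.24% higher and 1.36% lower over all tested genes. Under scaling by tested-gene counts the day 7 numbers were 1 and 31.

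Proteins of the mitochondrial ribosome, which translates mitochondrial messages, split evenly at day 7, with 23 of 64 tested genes higher and 26 lower (median -0.08), against 30 higher and 22 lower uninjured (median 0.27). The response difference passed for 8, all lower, beside 1.36% lower over all tested genes. Under scaling by tested-gene counts the day 7 numbers were 9 and 36. Both groups were taken by gene name after their values were seen, and no test of a group was made.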
